A study of Mus musculus with 36 samples.

Results

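The MSR-dCas9-Activator line was compared with itself, 24 h after doxycycline removal against uninduced, over all genes and repeat families in the count table. The labels give 3 libraries to each state, 6 of the 36 in the series. The line is mouse embryonic fibroblasts (MEF cells, from a male culture) that carry, on a PiggyBac transposon selected with hygromycin, a doxycycline-inducible dCas9-VPR fusion and a U6-driven guide RNA against the major satellite repeat (MSR), and it was kept as a mixed culture, not as a clone. In this line doxycycline at 10 ng/ml was given for 6 h and then washed out, and RNA was taken 24 h later. By that time, the paper reports, most induced cells of this line were apoptotic or dead by viability staining. The libraries therefore cannot be read as the state of living cells alone, and the part of dying cells in the levels below was not tested. The MSR-dCas9-Control line, used for comparison at the same 2 states with 3 libraries each, carries the same guide RNA with dCas9 and no effector domain and received 10 ng/ml for 24 h, so that both the effector and the time under doxycycline distinguish the lines. Total RNA depleted of ribosomal RNA was sequenced, and the study describes its replicates as independent experiments.

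Catalytically dead Cas9 (dCas9) binds the DNA that its guide RNA matches without cutting it, and VPR is a fusion of transcriptional activation domains. In mouse chromosomes the major satellite repeat fills the pericentric region beside the centromere, and the minor satellite repeat lies at the centromere itself. Both are packed in heterochromatin, which carries methylated histone H3 and methylated DNA, is bound by HP1 proteins and is transcribed at a low level in most cells. The comparison asks which transcripts still differed from the uninduced state a day after the inducer had been taken away.

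Counts assigned to genes and repeat families ranged from 48724512 to 59063716 per library in uninduced cells and from 51871703 to 52889701 at 24 h, and between 35583026 and 71148411 for MSR-dCas9-Control. Defining fibroblast genes were abundant before induction: the 13 fibroblast markers tested summed to between 1439640 and 1496430 normalised counts per library, against 558 to 578 for 6 macrophage and leukocyte markers and 118 to 159 for 6 epithelial markers. Normalised counts are counts scaled with TMM factors computed from genes. Replicate 2 at 24 h stood apart from replicates 1 and 3. The median absolute log2 difference between 24 h libraries, over genes with a mean above 100, was 0.15 between replicates 1 and 3 but 0.42 and 0.32 between each of them and replicate 2, where uninduced pairs lay between 0.15 and 0.20. Results that rest on this library are given with and without it.

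The satellite families had the 2 largest rises among repeat families with a mean of at least 100. GSAT_MM, the major satellite repeat, was counted at 4233, 2234 and 3849 normalised counts in the uninduced libraries and at 504180, 463808 and 1567160 at 24 h, in the order of replicates 1 to 3. SYNREP_MM, the minor satellite repeat, went from 686, 394 and 431 to 59339, 10860.4 and 34180.4. For both families every 24 h library lay far above every uninduced library, but the 24 h libraries also differed among themselves, with replicate 3 highest for GSAT_MM and replicate 1 highest for SYNREP_MM. The fitted log2 fold change was 7.72 for GSAT_MM (standard error 0.83, adjusted p = 3.76e-08) and 6.00 for SYNREP_MM (standard error 0.40, adjusted p = 1.14e-11), by the quasi-likelihood test of edgeR, p-values being adjusted over repeat families by Benjamini-Hochberg. A two-sided exact permutation test of the means gave p = 0.1 for each, the smallest value that 3 against 3 libraries allow. In the MSR-dCas9-Control line the log2 changes were 0.32 (standard error 0.63) and 0.15 (standard error 0.45), and the difference between the lines was 7.40 (standard error 0.98, adjusted p = 6.40e-06) and 5.85 (standard error 0.58, adjusted p = 1.15e-07). Before induction the lines were not level: uninduced MSR-dCas9-Control cells held 1472 ± 78.2 (SD, n = 3) normalised counts of GSAT_MM and 67.2 ± 5.95 (SD, n = 3) of SYNREP_MM, against 3439 ± 1060.5 (SD, n = 3) and 504 ± 159 (SD, n = 3) in the MSR-dCas9-Activator line.

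**Figure D1:**
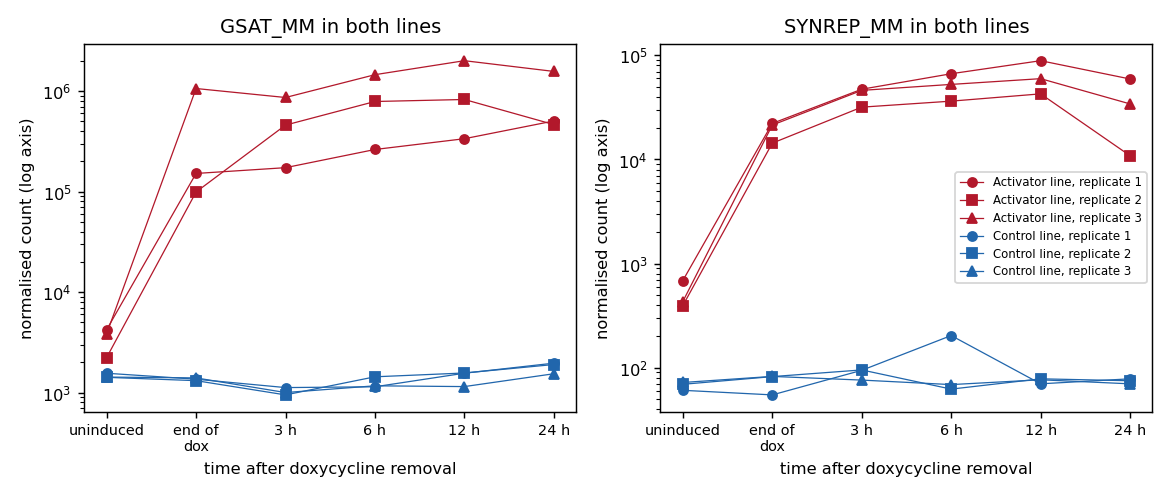
Normalised counts of GSAT_MM (left) and SYNREP_MM (right) on a log axis in each library of both lines, from uninduced through the end of doxycycline to 24 h after its removal, with states drawn at equal spacing and points of the same replicate number joined by a line. At 24 h the 3 MSR-dCas9-Activator libraries lie between 463808 and 1567160 for GSAT_MM and between 10860.4 and 59339 for SYNREP_MM, and the MSR-dCas9-Control libraries stay below all of them in both panels.

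Satellite families took 0.0759% ± 0.00611 (SD, n = 3) of all counts before induction and 1.09%, 1.04% and 2.81% in replicates 1 to 3 at 24 h. Of the 7 satellite families tested, 3 rose. The third was MurSAT1, at 0.891, 2.00 and 4.33 normalised counts before induction and 42.5, 13.4 and 30.9 at 24 h (log2 fold change 3.55, standard error 0.61, adjusted p = 4.21e-07). MMSAT4 was not called, at 10083, 9765 and 9667 before and 6277, 9511 and 6680.0 after, a log2 change of -0.41 (standard error 0.13, adjusted p = 0.00499). Its 24 h libraries were all below the uninduced ones, with replicate 2 the nearest to them. Of the 7 families, the difference between the lines was called higher for 3 and lower for 2.

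Several annotated gene models, most of them at the start of chromosome 9, have a repeat period of satellite length, and they are described here with the satellites. Spliced transcripts of 25786 genes were scanned for a repeat period close to the length of a major satellite unit, at an identity of at least 60%, and 16 genes had one. In 11 of them the period was 234 bases, and 10 of these 11 lie on chromosome 9. All 11 were called higher at 24 h, with log2 fold changes from 7.24 to 9.39, and none of the 5 genes with another period was called. Among these 5 Gm2310 had a log2 change of 4.46 (adjusted p = 4.3e-06) and Gm21886 of 2.29 (adjusted p = 1.61e-05) at means under the limit of 100, and the polyubiquitin gene Ubb one of 0.33. The highest identity of the 11 was in Gm26870, a long noncoding RNA gene on the minus strand at chr9:3000282-3038313 (GRCm38, GENCODE M21), where 95.9% of bases matched the base 234 positions further on. Gm26870 was counted at 229.8, 66.1 and 257 before induction and at 28330.2, 30829 and 107534 at 24 h, so that no libraries overlapped and replicate 3 was highest, as for GSAT_MM. On the log2 scale it was 7.92 higher (standard error 0.69, adjusted p = 2.02e-09). The first pair of repeat units in its first exon is printed to show the period, read on the minus strand from chr9:3038077-3038310 and chr9:3037843-3038076 of GRCm38, with capitals in the later unit at the 17 bases that differ from the earlier one.
Gm26870 unit 1: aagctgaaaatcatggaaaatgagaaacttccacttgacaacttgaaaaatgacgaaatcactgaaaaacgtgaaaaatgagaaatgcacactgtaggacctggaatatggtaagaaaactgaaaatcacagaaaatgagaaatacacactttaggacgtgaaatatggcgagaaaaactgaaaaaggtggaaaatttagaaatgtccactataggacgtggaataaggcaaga
Gm26870 unit 2: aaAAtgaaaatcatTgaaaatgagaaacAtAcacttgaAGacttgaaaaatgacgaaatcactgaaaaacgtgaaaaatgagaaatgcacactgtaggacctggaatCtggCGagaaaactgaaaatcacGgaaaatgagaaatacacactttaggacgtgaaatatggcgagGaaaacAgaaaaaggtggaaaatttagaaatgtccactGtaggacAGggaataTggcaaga
Gm10800 on chromosome 2, whose transcript has no such period, was the most abundant of the strongly raised gene models, at 1433, 449 and 1257 normalised counts before induction and 284049, 287027 and 992778 at 24 h (log2 fold change 8.66, standard error 0.87, adjusted p = 1.92e-08). As for GSAT_MM, replicate 2 was lowest before induction and replicate 3 highest at 24 h. How reads that match several copies were shared among families and gene models is not given in the sources used here, so counts of GSAT_MM and of these models cannot be told apart as separate transcripts.

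Beyond satellites, repeat families moved mostly upwards. Calls among families needed an adjusted p-value under 0.05 together with a log2 fold change beyond 0.5. By this rule 566 of the 1492 families tested (37.9%) were called, 545 higher (36.5%) and 21 lower (1.41%), and 54.3% of all families had no overlap between the 3 uninduced and the 3 24 h libraries. The median log2 fold change over all families was 0.37. In the MSR-dCas9-Control line 1 family was called (0.067%), RLTR22_Mus, and the median was 0.16. The difference between the lines was called for 310 families (20.8%), 297 with the higher change (19.9%) and 13 with the lower (0.871%) in MSR-dCas9-Activator cells, and 306 of the 566 called families were among the 310 in the same direction. For the difference 170 families were called without replicate 1 at 24 h, and 82 with scaling to mitochondrial mRNAs, where its median over all families was -0.08. Replicate 2 was the least changed of the 3 24 h libraries in 503 of the 545 higher families (92.3%), and without it 661 families were called, 621 higher and 40 lower. Repeat families took 21.2% ± 1.88 (SD, n = 3) of all counts before induction and 28.5% ± 1.43 (SD, n = 3) at 24 h, and in the MSR-dCas9-Control line 20.2% ± 0.784 (SD, n = 3) and 23.1% ± 0.288 (SD, n = 3). The exact permutation p was 0.1 in each line, the smallest possible.

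Families of long terminal repeat (LTR) elements, the remains of retroviruses, made up most of the called ones. Of 662 LTR families 381 rose (57.6%) and 6 fell, with a median log2 fold change of 0.60 (0.18 in the MSR-dCas9-Control line). By group, 199 of 279 ERVK families rose, 74 of 138 ERV1 families, 53 of 109 ERVL families and 31 of 104 ERVL-MaLR families. IAPEz-int, the internal part of the intracisternal A particle, was counted at 47271, 44735 and 54034 before induction and at 135821, 92292 and 134706 at 24 h (log2 fold change 1.31, standard error 0.12, adjusted p = 1.02e-16), and the difference between the lines was 1.08 (standard error 0.17, adjusted p = 6.06e-07). MERVL-int, a retrovirus known for its expression in the early embryo, went from 33589, 26308 and 35496 to 88806, 47759 and 78332 (log2 fold change 1.16, standard error 0.13, adjusted p = 1.57e-12). In both elements all 24 h libraries were above all uninduced ones and replicate 2 was the lowest at 24 h. Among LTR families with a mean of at least 100, the largest log2 rises were those of ERVB5_1-I_MM-int at 4.08 (standard error 0.40, adjusted p = 9.53e-09) and IAPLTR4_I at 3.72 (standard error 0.25, adjusted p = 8.56e-24). IAPLTR4_I was low throughout, at 29.4, 21 and 30.3 before induction and 518, 197 and 381 at 24 h.

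The tRNA families, which are transcribed by RNA polymerase III, had the highest median of the larger groups: 43 of 56 rose, none fell, and the median log2 fold change was 1.72 against 0.29 in the MSR-dCas9-Control line. The most abundant riser, tRNA-Gly-GGY, was counted at 227, 165 and 186 before induction and at 1241, 343 and 629 at 24 h. All B2 families, short elements that RNA polymerase III also transcribes, had a positive change and 3 of 5 rose. B2_Mm1a went from 61133, 50094 and 89050.2 to 388605, 120480.0 and 425852, which is 2.17 on the log2 scale (standard error 0.30, adjusted p = 2.02e-06), with replicate 2 again lowest at 24 h but above every uninduced library. Among 16 Alu families, the group that holds the B1 elements, 2 rose. Of 282 simple repeats 39 rose and 4 fell, and (CAGGG)n had the largest rise of those with a mean of at least 100, from 355, 347 and 506 to 16460.1, 6457 and 14334 (log2 fold change 4.94, standard error 0.24, adjusted p = 9.04e-16). Of 198 DNA transposon families 27 rose and 3 fell.

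Falls among repeats were few and small. The largest fitted fall, in the spliceosomal RNA family U2 (-1.38, standard error 0.55, adjusted p = 0.0401), came from uninduced replicate 3 alone, which held 6512 normalised counts where the other 5 libraries lay between 974 and 1188. Without that library the log2 change of U2 was -0.0023 (adjusted p = 0.997). Eulor9A fell by 0.84 on the log2 scale (standard error 0.20, adjusted p = 0.000316), from 282, 283 and 369.5 to 138, 236 and 163, with no overlap. The other 3 of the 5 largest falls were RNERVK23-int (-0.68), (CTAAT)n (-0.67) and MER127 (-0.65). For (CTAAT)n replicate 2 at 24 h lay within the uninduced range. Its adjusted p was 0.0937 without replicate 1 and 0.102 without replicate 3 at 24 h. Without the replicate number in the model it was 0.0509.

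**Figure D2:**
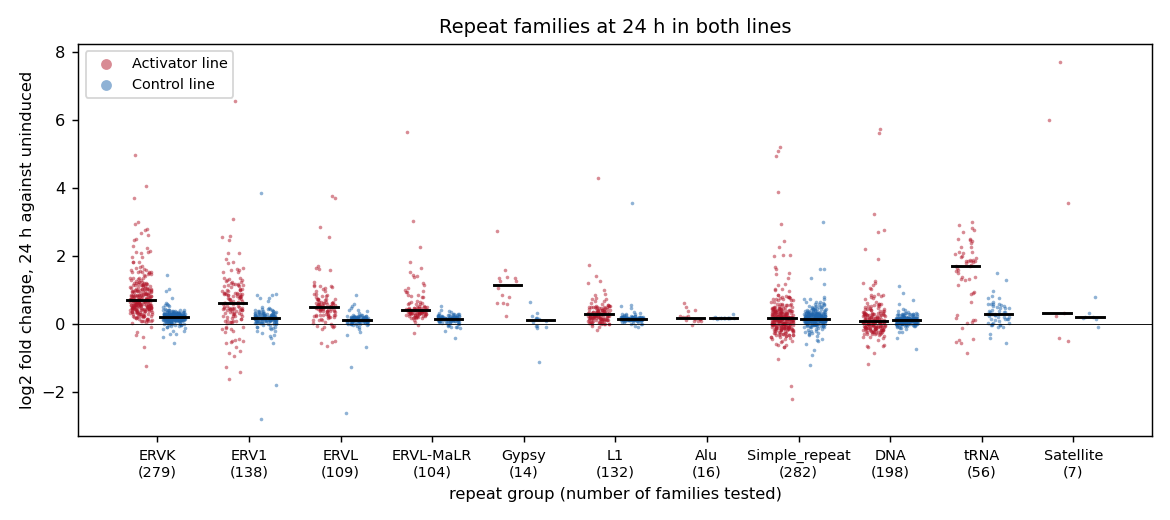
Log2 fold change of each repeat family at 24 h against uninduced, by repeat group, in the MSR-dCas9-Activator line (red) and the MSR-dCas9-Control line (blue), with horizontal bars at the medians and the number of families tested under each group. The tRNA families have the highest median drawn (1.72), the ERVK families a median of 0.71, and in the MSR-dCas9-Control line every median drawn lies between 0.11 and 0.30.

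Among genes, called when the adjusted p-value was under 0.05, the log2 fold change beyond 1 and the mean normalised count above 100, 2037 of 28542 tested (7.14%) had changed at 24 h, 1017 higher (3.56%) and 1020 lower (3.57%). The split between directions depends on the scaling: calls were 1160 higher and 758 lower with DESeq2, 1160 and 745 with its size factors in edgeR, 1176 and 744 with the library size alone, and 841 and 2108 when libraries were scaled to the 13 mitochondrially encoded mRNAs. Without replicate 2 at 24 h the counts were 1177 higher and 1883 lower, 711 and 629 without replicate 1, and 783 and 819 without replicate 3. For MSR-dCas9-Control the calls were 35 genes (0.123%), 5 higher (0.0175%) and 30 lower (0.105%), and 19 without its replicate 1 at 24 h. The difference between the lines was called for 1483 genes (5.2%), 657 higher (2.3%) and 826 lower (2.89%), with 917 without replicate 1 and 2408 without replicate 2 at 24 h. Its split was 767 higher and 647 lower with DESeq2 and 450 and 1850 with mitochondrial scaling. Of the 2037 called genes, 1139 were also called in the test of the difference, in the same direction. That test takes the mean over the 12 libraries of both lines, so genes low in MSR-dCas9-Control cells can miss the limit. The lines shared 1 called higher gene, Soat2, and 12 called lower genes. Of the called genes 994 higher and 906 lower ones had no overlap between states, and 56.7% of all genes tested had none.

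The limit on the mean lets a gene be called higher through its 24 h libraries alone, while a gene called lower must start above it, so the starting levels of the 2 directions are given as a description. Genes called higher had a median uninduced level of 72.9 normalised counts and a median log2 fold change of 2.08, and 362 of them rose by more than 3 on the log2 scale. In 55 of them no uninduced library had more than 3 counts, and 14 had no count at all in the 3 uninduced libraries. Genes called lower started from a median of 1599 normalised counts, had a median change of 1.21 in size, and fell by more than 2 on the log2 scale in 25 genes and by more than 3 in 1. Below the mean limit of 100, where no call was made, 6893 of 14711 genes (46.9%) passed the other limits upwards and 610 (4.15%) downwards. The filter on low counts also acts on this split, since it admits a gene that is silent before induction only through other libraries. Genes with at least 10 counts numbered 21060 ± 142 (SD, n = 3) per library before induction and 25100.3 ± 1144 (SD, n = 3) at 24 h (exact permutation p = 0.1, the smallest possible), whereas MSR-dCas9-Control libraries had 20622 ± 918 (SD, n = 3) and 20827 ± 864 (SD, n = 3) (exact permutation p = 0.8). In bulk RNA, fewer cells of a kind and less RNA per cell cannot be told apart.

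**Figure D3:**
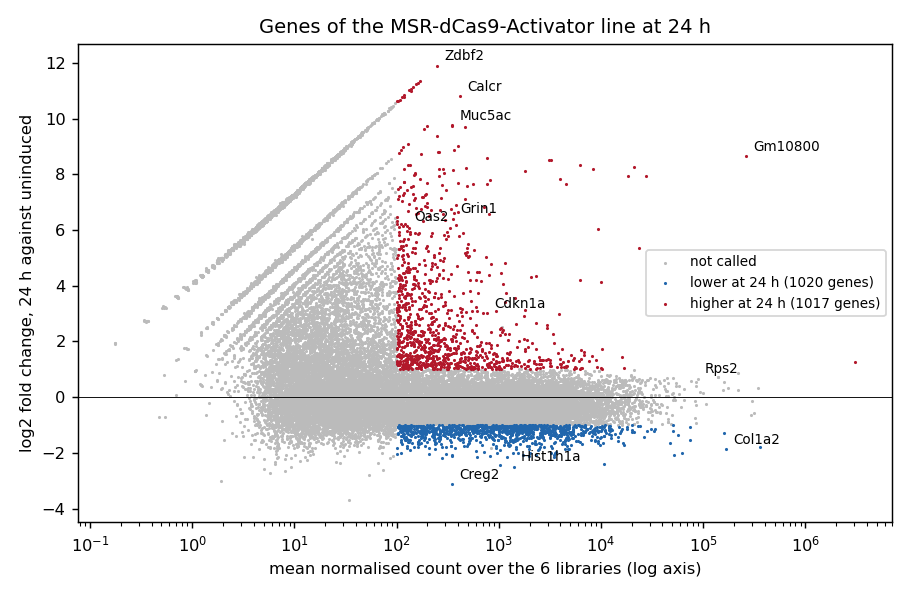
Log2 fold change of each gene at 24 h against uninduced in the MSR-dCas9-Activator line, plotted against its mean normalised count over the 6 libraries on a log axis, with called higher genes in red (1017), called lower genes in blue (1020) and other genes in grey. The called falls go down to -3.13 while the rises reach 11.9, and the diagonal lines of points at the left are genes with 0 or a few counts in the uninduced libraries, whose fitted values are not bounds.

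Some of the highest rises were in genes that these fibroblasts did not transcribe detectably before induction. Zdbf2, an imprinted gene at chr1:63273265-63314576 (GRCm38), had no count in any uninduced library and 699.6, 207 and 594 normalised counts at 24 h. Against a floor of 3 counts per library this is at least 168-fold higher. By the same floor Olfr157, an olfactory receptor gene, was at least 114-fold higher, Crx, which encodes a photoreceptor transcription factor, at least 108-fold, the RNA export gene Nxf2 at least 97.2-fold, the vomeronasal receptor gene model Vmn2r-ps159 at least 93.3-fold, Xylt1, a xylosyltransferase gene, at least 80.1-fold, Sox2ot at least 72.2-fold and Dock2 at least 68.6-fold. None of these 8 genes had a count in any uninduced library, and in each of them replicate 2 was the lowest of the 24 h libraries. Crx was at 394, 175 and 395 at 24 h, and its neighbour Crxos, named after its values were seen, went from a single count to 522, 209 and 462. Calcr, the calcitonin receptor gene, had 1 count over the uninduced libraries and 2369 at 24 h, a ratio of normalised counts of 2493 with an exact 95% counting interval from 447 to 98524. For Muc5ac, a gel-forming mucin, 2 counts before induction and 1996 at 24 h gave a ratio of 1050.4 (290.4 to 8679). The predicted genes with the largest rises, Gm12171, Gm32479 and Gm43175, were at least 105-fold, 93.8-fold and 89.8-fold higher.

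Protein coding genes made up 74.7% of the genes called higher and 81.2% of those called lower, long noncoding genes with those of unsettled type 19.7% and 15.3%, and pseudogenes 5.11% and 1.37%. The same 3 classes made up 57.7%, 22.5% and 13.5% of all genes tested and 83%, 12.3% and 2.9% of those with a mean above 100. Genes called higher lay near each other: 417 of 1015 with a position (41.1%) were within 100 kb of another gene called higher, against 17.5% of all genes tested and 10.7% of genes called lower. For genes called lower, 34.2% were within 100 kb of another such gene, against 13.8% of all tested. In the 10 Mb next to the assembly gap at the centromeric end of each chromosome lay 12.4% of the genes called higher, 5.78% of those called lower and 7.88% of all tested. By chromosome the share of tested genes called higher ran from 1.69% on chromosome 13 to 5.67% on chromosome 11. These shares are descriptions with no test. Those of nearness and centromeric position include the 10 chromosome 9 models with a period of 234 bases. Overlapping gene models were not removed from them.

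Among the genes named by rule, Creg2 had the largest fall, from 637, 665 and 565 normalised counts to 29.8, 145 and 58.5 (log2 fold change -3.13, standard error 0.31, adjusted p = 4.82e-08). No Creg2 count was found in either state of the MSR-dCas9-Control line, so no difference between the lines could be read for it. Hist1h1a, a linker histone gene at chr13:23763666-23764406, followed with 2466, 2741 and 1948 before and 377, 469 and 409 after (-2.50, standard error 0.17, adjusted p = 1.03e-12). It was the one large fall in which replicate 2 lay close to the other 24 h libraries. Adamts5, which encodes a protease that cuts the proteoglycan aggrecan, went from 20581, 14275 and 18059 to 1451, 7787 and 2485 (-2.40, standard error 0.42, adjusted p = 3.05e-05), with replicate 2 between the uninduced libraries and the other 24 h libraries. The same pattern held in Fat4, a cadherin gene (-2.43, standard error 0.51, adjusted p = 0.000273), Ntn4, a netrin gene (-2.19), Col11a1, a collagen gene (-2.16), Frmd4b (-2.14), Medag (-2.13) and the transcription factor gene Sp8 (-2.12). Frmd4b was not called without the replicate number in the model (adjusted p = 0.0745). The difference between the lines was called for 6 of these 9 genes and not for Creg2, Ntn4 and Col11a1, and in Col11a1 the MSR-dCas9-Control change was -1.24. Mir5114, Gm12744 and Gm43921 had the largest falls among predicted and small RNA genes, at -2.11, -2.09 and -2.06, and Gm43921 was not called without the replicate number (adjusted p = 0.0995). Gm43921 (chr6:4506087-4507878) lies within Col1a2 (chr6:4504814-4541544) on the same strand, so their counts cannot be told apart as separate transcripts. Whether reads at Mir5114 (chr19:44303171-44303231) and Gm12744 come from longer overlapping transcripts was not tested.

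Genes were also read in 27 lists of pathways and cell functions, and each count and median is to be set beside those of all genes. Over all genes tested 3.56% were called higher and 3.57% lower, and the median log2 fold change was 0.06. Only the 13831 genes with a mean above 100 could be called. Of these 7.35% were called higher and 7.37% lower, and their median was -0.25. Over the 14711 genes at or under that mean the median was 0.996. The filter on low counts keeps a gene that any of the 12 groups expresses enough. A gene silent before induction was thus tested only if other libraries held it. Medians of lists with such genes can be raised by this filter and are given as descriptions.

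**Figure D4:**
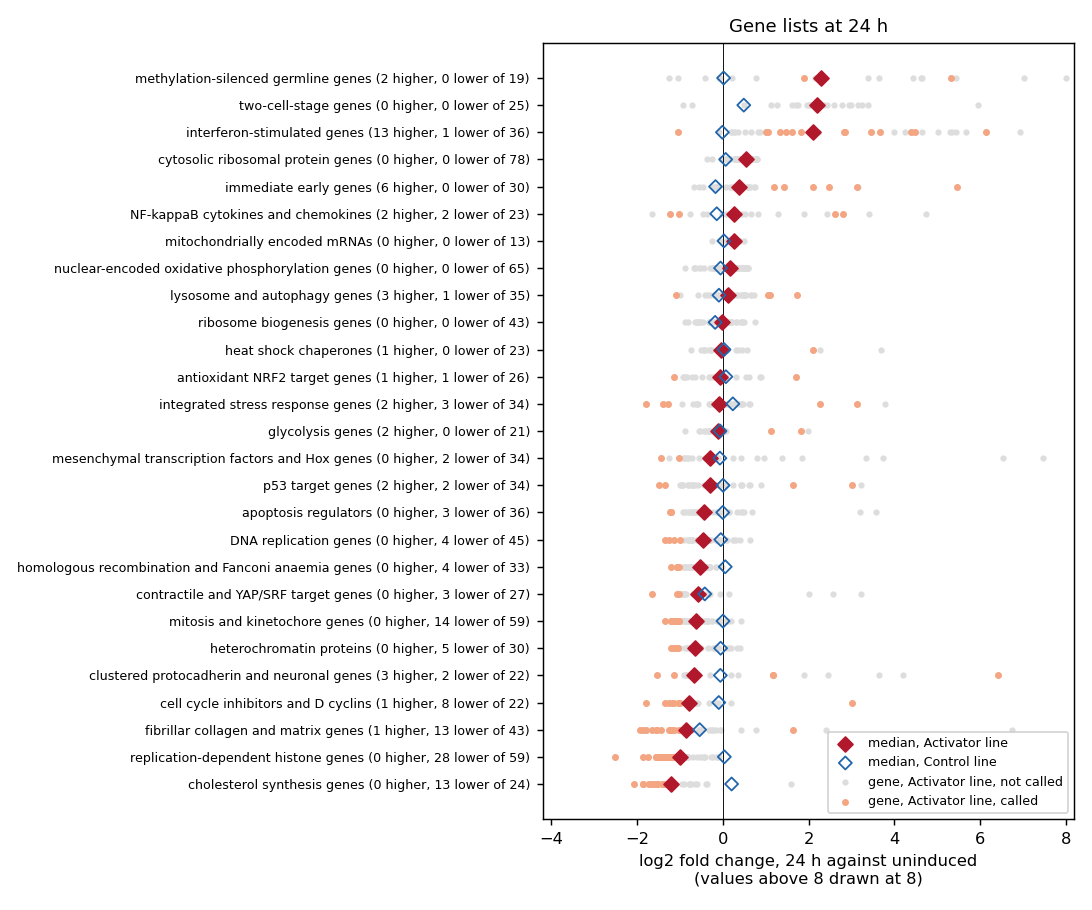
Log2 fold change at 24 h against uninduced for the members of 27 gene lists in the MSR-dCas9-Activator line (small points, orange where called), with the list medians of the MSR-dCas9-Activator line (red) and of the MSR-dCas9-Control line (open blue). Cholesterol synthesis genes have the lowest median (-1.21) and methylation-silenced germline genes the highest (2.30), while the MSR-dCas9-Control medians lie between -0.54 and 0.49. Medians of lists with genes silent before induction can be raised by the filter on low counts.

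Cholesterol synthesis was the list with the lowest median, at -1.21 against 0.21 in the MSR-dCas9-Control line. Cells make cholesterol from acetyl-CoA by a chain of enzymes whose genes the transcription factor SREBP2 switches on when sterols are scarce. Of 24 members tested 13 fell and none rose, 23 had a negative change, and the difference between the lines was called lower for 16. Hmgcs1, an early enzyme of the pathway, was counted at 5188, 11071 and 6316 before induction and at 1251, 3939.8 and 1384 at 24 h (log2 fold change -1.86, standard error 0.36, adjusted p = 0.000105). Every 24 h library of Hmgcs1 was below every uninduced library, and replicate 2 was the highest of both states. Srebf2, which encodes SREBP2 itself, fell by 1.22 on the log2 scale (standard error 0.12, adjusted p = 2.33e-09). Soat2, which esterifies cholesterol, rose in both lines, by 1.21 on the log2 scale here and by 1.58 in MSR-dCas9-Control cells.

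In the lists of DNA replication and division, calls were made only in the lower direction. Of 59 replication-dependent histone genes, whose mRNAs are made in S phase, 28 fell and none rose, all 59 had a negative change, and the median was -0.99 (0.04 in the MSR-dCas9-Control line). Their summed level was 144151, 226004 and 174546 normalised counts before induction and 71750, 103296 and 88336 at 24 h. These mRNAs lack a poly(A) tail and were counted here because the libraries were made from total RNA. The gene with the largest fall was Hist1h1a, described above, followed by Hist1h1b, another linker histone gene (-1.85, standard error 0.13, adjusted p = 2.54e-12). Of 59 mitosis and kinetochore genes 14 fell and none rose, with -0.63 as the median (MSR-dCas9-Control, 0.01), but this count was 8 with DESeq2 and 24 with scaling to mitochondrial mRNAs. Ccna2, cyclin A2, went from 10383, 7966 and 9207 to 3083, 4107 and 3584 (-1.35, standard error 0.10, adjusted p = 3.53e-12), without overlap, and Mki67, a marker of cycling cells, fell by 1.08 on the log2 scale (standard error 0.11, adjusted p = 1.37e-09). Of 45 genes of DNA replication 4 fell, with Rrm2, the small subunit of ribonucleotide reductase, lowest at -1.34 (standard error 0.13, adjusted p = 2.13e-09). With scaling to mitochondrial mRNAs 8 of these genes and 43 of the histone genes were called lower. Of 33 homologous recombination and Fanconi anaemia genes 4 fell, Bard1 most (-1.21, standard error 0.10, adjusted p = 2.93e-11), but 1 without replicate 1 or without replicate 3 at 24 h and 1 with DESeq2, and all 33 had a negative change in the full fit.

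In the list of cell cycle inhibitors and D cyclins, which also holds E2F factors, 1 of 22 rose, 8 fell and 13 were not called. The gene that rose was Cdkn1a, which encodes p21, the p53-induced inhibitor of the cell cycle. It was counted at 107, 212 and 168 before induction and at 1599, 737 and 1744 at 24 h (log2 fold change 3.02, standard error 0.24, adjusted p = 4.14e-11), so that the lowest 24 h library, replicate 2, was above the highest uninduced one. In the MSR-dCas9-Control line its change was 0.91 (standard error 0.25), and the difference between the lines was 2.10 (standard error 0.34, adjusted p = 3.54e-05). Of the 8 called falls that of the inhibitor Cdkn2c was the largest, by 1.79 on the log2 scale (standard error 0.22, adjusted p = 1.88e-07). The inhibitors Cdkn2d, Cdkn1b and Cdkn2b fell as well, with the D cyclins Ccnd2 and Ccnd3 and the E2F factors E2f2 and E2f8. Without replicate 1 at 24 h, or without uninduced replicate 1, 5 members were called, 4 of them lower. Of 34 p53 target genes 2 rose, Cdkn1a and Gadd45a (1.64, standard error 0.21, adjusted p = 1.37e-07), and 2 fell, Psrc1 (-1.49, standard error 0.14, adjusted p = 9.05e-10) and Fdxr, and the list median was -0.30. Without replicate 2 at 24 h 3 rose and 7 fell, and without uninduced replicate 2 2 rose and 5 fell.

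Of 30 genes of heterochromatin proteins 5 fell and none rose, 25 had a negative change, and the median was -0.65 (-0.05 in the MSR-dCas9-Control line). With DESeq2 3 fell, and with scaling to mitochondrial mRNAs 12. The 5 were Cbx5 and Cbx3, which encode HP1 alpha and HP1 gamma, Dnmt1 and Uhrf1, which maintain DNA methylation after replication, and Kmt5c, which methylates histone H4 in pericentric heterochromatin. Cbx5 was counted at 29712, 26695 and 26662 before induction and at 10480.4, 15125 and 11389 at 24 h (-1.16, standard error 0.10, adjusted p = 1.66e-10), with no overlap. Kmt5c had the largest fitted fall, at -1.20 (standard error 0.32, adjusted p = 0.00219), but replicate 2 at 24 h (805) lay within the uninduced libraries (712, 1156 and 1007), and the adjusted p was 0.0535 without the replicate number in the model. Only for Kmt5c was the difference between the lines called, since those of the other 4 were between -0.995 and -0.85 and so short of the limit of 1. The fall of these genes went with that of the cell cycle genes above, and their part in each other was not tested.

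Of 43 genes of fibrillar collagens and matrix 13 fell in the MSR-dCas9-Activator line and 8 in the MSR-dCas9-Control line, and the medians were -0.86 and -0.54. Col6a3 fell by 1.94 on the log2 scale (standard error 0.21, adjusted p = 1.23e-08), with -1.74 in the MSR-dCas9-Control line, and Lox, which cross-links collagen, by 1.44 (standard error 0.17, adjusted p = 4.25e-08), with -1.52, and for neither was the difference between the lines called. In this list the difference was called lower for Col1a1, Col1a2 and Col6a1 and higher for Mmp13. Col1a2 was counted at 249864, 280525 and 248163 before induction and at 39862, 139298 and 48536 at 24 h (-1.86, standard error 0.22, adjusted p = 8.30e-08), with a difference between the lines of -1.65 (standard error 0.31, adjusted p = 0.000213). The 24 h libraries were all below the uninduced ones, and replicate 2 was well above replicates 1 and 3. Mmp13, a collagenase, was the only member that rose, from 112, 115 and 135 to 299.8, 468 and 365 (1.65, standard error 0.25, adjusted p = 2.03e-06). Without replicate 2 at 24 h 24 members fell. Of 27 contractile and YAP/SRF target genes 3 fell, among them Acta2, smooth muscle actin (-1.66, standard error 0.28, adjusted p = 1.98e-05), which fell further in the MSR-dCas9-Control line (-2.67, standard error 0.29). This count ranged from 1 without replicate 1 at 24 h or uninduced replicate 1 to 7 without replicate 2 at 24 h and 6 without uninduced replicate 2. Of the 13 fibroblast markers 7 fell, the median was -1.31, and their summed level was 483711, 876350 and 518310 at 24 h, the range before induction being given above.

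Among the lists read here, the interferon-stimulated genes alone had more than 1 called higher gene in which replicate 2 at 24 h was the highest library. These genes answer to interferon, which cells release when they sense foreign nucleic acid, and their products block viruses. Of 36 tested 13 were called higher and 1 lower, 34 had a positive change, and the median was 2.11 (MSR-dCas9-Control, -0.01). Their summed level was 12982, 14743 and 12847 normalised counts before induction and 12547, 37440 and 17723 at 24 h, so that replicate 1 was below the uninduced range and replicate 2 far above it. In all 13 genes replicate 2 was the highest 24 h library, and without it 4 were called higher and 1 lower. The list median without replicate 2 was 1.98. Isg15, a ubiquitin-like modifier, was counted at 57.0, 71.1 and 62.8 before induction and at 105, 1326 and 351 at 24 h (log2 fold change 2.84, standard error 0.69, adjusted p = 0.00111). Ifit1, which binds viral RNA, went from 10.7, 24.0 and 14.1 to 44.7, 1204 and 268 (4.38, standard error 0.92, adjusted p = 0.000265). Oas2, which makes the activator of RNase L, had the largest fitted rise, from 0, 2.00 and 5.42 to 12.8, 644 and 99.3 (6.14, standard error 0.80, adjusted p = 2.62e-07). In these 3 genes the states did not overlap, but the 24 h libraries differed by more than 10-fold among themselves. Irf7, a transcription factor of the pathway, was at 106, 90.1 and 84.5 before and 215, 533 and 268 after. Ifit2 was the member that fell, from 1479, 1376 and 1161 to 416, 1099 and 539 (-1.03, standard error 0.25, adjusted p = 0.00089). The median change of the genes called higher at 24 h, over all genes, was 2.33, 1.51 and 2.26 in replicates 1 to 3, and of those called lower -1.70, -0.63 and -1.46. Replicate 2 was the least changed library in 954 of the 1017 higher genes (93.8%) and the most changed in 36 (3.54%).

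**Figure D5:**
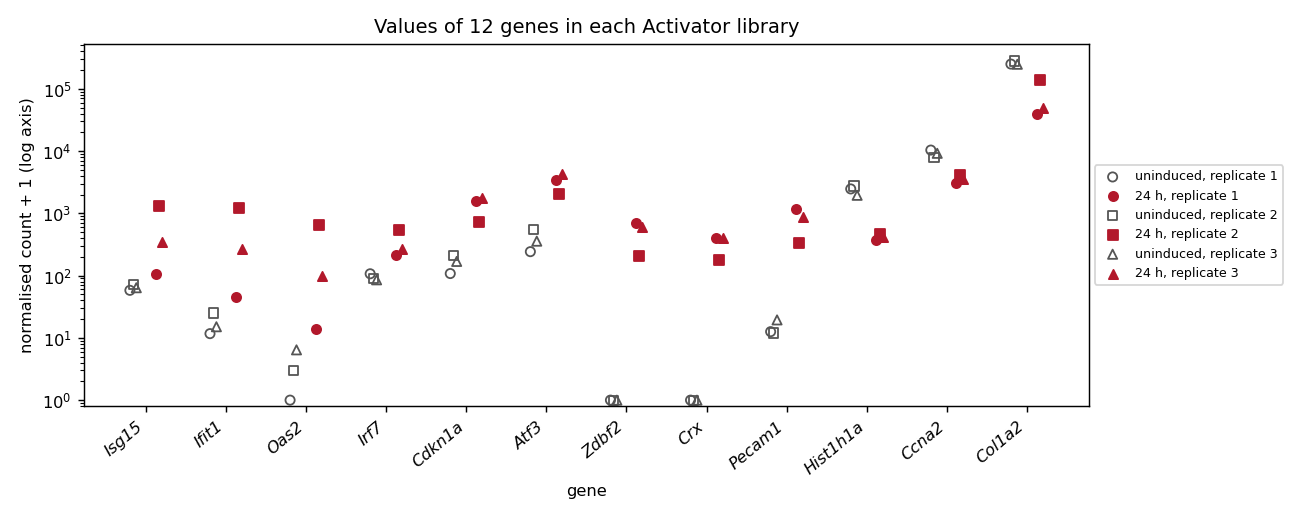
Normalised count plus 1, on a log axis, of 12 genes in each library of the MSR-dCas9-Activator line, open symbols for uninduced and filled for 24 h, with the symbol shape giving the replicate number. For Isg15, Ifit1, Oas2 and Irf7 the filled square of replicate 2 is the highest 24 h library, as at 1326 for Isg15, while for Cdkn1a, Atf3, Zdbf2, Crx and Pecam1 it is the lowest.

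The promoters of interferon-stimulated genes are known to hold the interferon-stimulated response element. Windows of 300 bases, from 250 before to 50 after the start of each gene (RefSeq, GRCm38.p6), were searched on both strands for the letters TTTC, any 2 bases and TTTC again. Of 27 members with a window 15 held a match, against 3.99% of the 27025 genes with one, and of the 9 called higher with a window 4 did. The windows of Isg15 at chr4:156200769-156201068 (minus strand), Ifit1 at chr19:34640639-34640938 (plus strand) and Bst2, which encodes tetherin, at chr8:71537423-71537722 (minus strand) are printed because their genes rose and hold more than 1 match, in the direction of the gene with the matches in capitals. The 3 matches of Isg15 overlap and the 2 of Bst2 do as well, and where the capitals read GAAA the match is on the opposite strand.
Isg15 promoter: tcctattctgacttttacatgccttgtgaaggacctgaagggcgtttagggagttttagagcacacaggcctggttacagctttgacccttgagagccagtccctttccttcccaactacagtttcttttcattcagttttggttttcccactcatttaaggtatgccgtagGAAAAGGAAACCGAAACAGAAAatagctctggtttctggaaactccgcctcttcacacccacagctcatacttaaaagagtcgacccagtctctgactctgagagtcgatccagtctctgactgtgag
Ifit1 promoter: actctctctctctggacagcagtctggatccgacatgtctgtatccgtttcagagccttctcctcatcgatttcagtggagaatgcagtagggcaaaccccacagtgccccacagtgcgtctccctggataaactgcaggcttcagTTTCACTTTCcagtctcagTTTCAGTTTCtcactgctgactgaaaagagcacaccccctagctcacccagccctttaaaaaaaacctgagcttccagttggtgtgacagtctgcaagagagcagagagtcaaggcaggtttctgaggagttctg
Bst2 promoter: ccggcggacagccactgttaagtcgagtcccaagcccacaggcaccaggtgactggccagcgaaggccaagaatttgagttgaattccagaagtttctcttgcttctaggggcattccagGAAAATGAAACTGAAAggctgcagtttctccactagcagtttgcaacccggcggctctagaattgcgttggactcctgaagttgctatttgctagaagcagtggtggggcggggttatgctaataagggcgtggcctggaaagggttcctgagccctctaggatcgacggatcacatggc
Bst2 was counted at 106, 126 and 91.0 before induction and at 98.9, 576 and 189.8 at 24 h (log2 fold change 1.33), so that replicate 1 at 24 h stayed within the uninduced libraries. The same windows were searched for TTTGAA, the core of the cell cycle genes homology region, which 30 of 50 mitosis and kinetochore genes with a window held, against 20.2% of all genes. A match is a description and not a shown site of binding.

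Of 30 immediate early genes, which cells switch on within minutes of a signal, 6 rose and none fell. Arc rose from 8.02, 3.00 and 4.33 to 324, 126 and 268 (log2 fold change 5.45, standard error 0.40, adjusted p = 5.57e-12), Atf3 from 241, 542 and 357 to 3413, 2053 and 4302 (3.12, standard error 0.24, adjusted p = 4.84e-11), and Fosl1, a partner in the AP-1 complex, from 1228, 568 and 872 to 5642, 3189 and 6268 (2.47, standard error 0.25, adjusted p = 8.72e-09). No library of one state overlapped the other in these 3 genes. Maff, Nr4a2 and Egr2 rose too, by 2.10, 1.42 and 1.18 on the log2 scale. The MSR-dCas9-Control changes were 0.28 for Arc, 0.46 for Atf3 and -0.18 for Fosl1. Few members of the stress, cytokine, NRF2 and apoptosis lists were called, and their counts are not read as a movement of a list. Of all genes with a mean above 100, 7.35% were called higher and 7.37% lower. That mean was passed by 32 integrated stress response genes, 21 chaperones, 18 cytokines and chemokines, 26 NRF2 targets and 33 apoptosis regulators. Of 34 integrated stress response genes 2 rose, Atf3 and Ppp1r15a (2.26), which restores translation after stress, and 3 fell, Pck2 (-1.79, standard error 0.15, adjusted p = 9.17e-11), Atf5 and Vldlr. Of 23 heat shock chaperones Hspa1b, an inducible HSP70, rose (2.12, standard error 0.30, adjusted p = 7.24e-07). Of 23 NF-kappaB cytokines and chemokines Il6 rose, from 47.2, 40 and 39.0 to 384, 173 and 343 (2.80, standard error 0.22, adjusted p = 1.44e-11), as did Ptgs2, while Csf1 fell (-1.23, standard error 0.29, adjusted p = 0.000731), as did Vcam1. Without replicate 1 at 24 h neither fall was called. Of 26 NRF2 target genes Hmox1, haem oxygenase, rose (1.71, standard error 0.18, adjusted p = 6.24e-09) and Mgst1 fell (-1.13, standard error 0.25, adjusted p = 0.00045), the called members numbering 1 without replicate 1 at 24 h, 8 without replicate 2 and 4 without uninduced replicate 1. Of 36 apoptosis regulators 3 fell, the caspases Casp9 (-1.23, standard error 0.29, adjusted p = 0.000729) and Casp12 and the survival gene Bcl2, and 5 without replicate 2 at 24 h.

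In the lists of lysosome, glycolysis, ribosome and mitochondrial genes few or no members were called. Of 35 lysosome and autophagy genes 3 rose, with Atp6v1h, a subunit of the vacuolar proton pump, going from 4771, 4778 and 4566 to 18698, 10005 and 18447 (log2 fold change 1.73, standard error 0.12, adjusted p = 2.09e-12), and Wipi1 fell (-1.09). Without replicate 1 or replicate 3 at 24 h 2 of this list were called. Of 21 glycolysis genes 2 rose, Slc16a3, a lactate transporter (1.82), and Pfkp. None of 78 cytosolic ribosomal protein genes, 43 ribosome biogenesis genes, 65 nuclear genes of oxidative phosphorylation or 13 mitochondrially encoded mRNAs was called, although 75 of the 78 ribosomal protein genes had a positive change and their median was 0.54 (0.07 in the MSR-dCas9-Control line). The sum of the ribosomal protein genes was 1315990.0, 1282440.0 and 1087470.0 before induction and 2238800.0, 1139900.0 and 1924370.0 at 24 h, so that replicate 2 stayed within the uninduced range and the other 2 libraries lay above it. Without replicate 2 at 24 h 2 of these genes were called higher and 1 ribosome biogenesis gene lower. At an adjusted p under 0.05, with no limit on the size of the change, 59 of the 78 ribosomal protein genes were higher and 2 lower. By the same rule 19 of the 65 nuclear genes of oxidative phosphorylation were higher and 9 lower. Over all 28542 genes tested, 17696 had an adjusted p under 0.05 in either direction. Rps2 had a change of 0.67 (standard error 0.14, adjusted p = 0.000121), Npm1 of the ribosome biogenesis genes 0.42, Atp5b 0.41 and mt-Co1 0.33. Hprt, often used as a reference gene, was counted at 3822, 3596 and 3213 before induction and at 2874, 2508 and 2734 at 24 h, a log2 change of -0.39 (standard error 0.12, adjusted p = 0.00471).

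Of 19 methylation-silenced germline genes 2 rose, Piwil2, a piRNA pathway gene (from 3.56, 3.00 and 8.67 to 263, 127 and 233, log2 fold change 5.33, standard error 0.37, adjusted p = 1.77e-12), and Stag3, a meiotic cohesin subunit (1.91), and 1 without replicate 1 or replicate 3 at 24 h. The median was 2.30, and 3 of the 19 had a mean above 100. Of the 33 genes listed 19 passed the filter on low counts, which can raise this median and that of the two-cell-stage genes. Over all genes at or under that mean the median was 0.996. Of 25 two-cell-stage genes none was called and 1 had a mean above 100, Eif1a (-0.71, standard error 0.11, adjusted p = 4.32e-06), and the median was 2.21, or 2.05 with genes absent before induction at their lower bound. Of 22 clustered protocadherin and neuronal genes 3 rose, Grin1, a glutamate receptor subunit gene, most (from 3.56, 16 and 4.33 to 921, 349.9 and 857, 6.41, standard error 0.40, adjusted p = 4.33e-13), and 2 fell, Tubb3 (-1.53) and Ncam1. The median of this list was -0.66, and 12 were called without replicate 2 at 24 h, 9 of them lower. Of 34 mesenchymal transcription factor and Hox genes 2 fell, Prrx1 (-1.45, standard error 0.21, adjusted p = 1.45e-06) and Osr1. Of this list 1 was called without replicate 1 or 3 at 24 h or uninduced replicate 1, 6 were called without replicate 2 at 24 h and 4 without uninduced replicate 2.

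Markers of other cell types were read in the same way, and markers of 2 of the types, endothelial and skeletal muscle, were called higher. Of 7 endothelial markers 3 rose, Pecam1, Vwf and Tek, and the median was 4.36, or 4.25 with a gene absent before induction at its lower bound. Pecam1, at chr11:106654217-106750628, went from 11.6, 11.0 and 18.4 to 1183, 327 and 881 (log2 fold change 5.80, standard error 0.48, adjusted p = 3.80e-10), while Cldn5 had no count before induction and 3.19, 1.91 and 2.21 normalised counts after, and Cdh5 had 23.4, 0 and 3.31. The endothelial sum was 79.3 to 138 before induction and 825 to 1969 at 24 h. Of 7 skeletal muscle markers Ttn rose (1.83, standard error 0.22, adjusted p = 9.18e-08), and their sum went from a range of 559 to 597 to one of 987 to 1603. Without replicate 2 at 24 h 2 muscle markers were called, 1 of them lower. No macrophage and leukocyte marker of 6 was called, with a sum of 558 to 578 before and 781 to 1139.8 after, and Laptm5 had no count before induction. No pluripotency marker of 8 was called: Sox2, Lin28a, Dppa5a, Esrrb and Tdgf1 had no count before induction, and the sum was 424 to 548 before and 403 to 639 after. Of 4 liver and erythroid markers none was called, with Alb at 0 in every uninduced library and at 252, 73.6 and 211 at 24 h, a mean under the limit of 100, and Ttr at 0 before induction, and leaving out any single uninduced library brought 1 call. Of 6 epithelial and keratinocyte markers none was called, with sums of 118 to 159 and 160 to 242, and of 6 testis and brain markers Tubb3 alone was, lower, with sums of 2987 to 3095 and 1586 to 2526. The part of other cell types in these levels was not tested. The filter on low counts left 7 of 8 endothelial, 8 of 10 pluripotency and 4 of 10 liver and erythroid markers. Markers silent before induction entered only through other libraries, so medians here can be raised by this filter.

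The 4 time points between, which share the uninduced libraries with the comparison, place some of these levels. Zdbf2 was at a mean of 572 normalised counts at the end of doxycycline, 907 at 12 h and 500.0 at 24 h, and Pecam1 at 579.7, 1217 and 797. Cdkn1a and Atf3 were low at the end of doxycycline, at 200.03 and 249, and had their highest means at 24 h, 1360.1 and 3256. Crx was also low at the end of doxycycline, at 11.4, and stood at 300.3 at 12 h and 322 at 24 h. Among the genes that were lower at 24 h, Hist1h1a was at 2783 at the end of doxycycline, 472 at 12 h and 419 at 24 h, Col1a2 at 173010.0, 69471 and 75899, and Creg2 at 373, 31.9 and 77.9. The 24 h means of these last 2 genes were raised by replicate 2: for Col1a2 replicates 1 and 3 went from 65007 and 63869 at 12 h to 39862 and 48536 at 24 h, and replicate 2 from 79538 to 139298. These means are given side by side with no test.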

How the data were processed

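Per the labels and the study's methods, total RNA was depleted of ribosomal RNA, made into stranded libraries and sequenced in pairs, and the authors aligned reads to GRCm38 and counted them per gene and repeat family with TEtranscripts. The values deposited are raw counts, 1 column per library. The strand setting, the treatment of reads that match several places and the annotation release are not given in the sources used here, so overlapping genes and near-identical copies are uncertain. The table held 54842 genes, 1561 repeat families and 1 unnamed row, which took 0.00293% to 0.00452% of counts in the 6 libraries compared and was left out.

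Counts were tested with edgeR 4.0.16 (quasi-likelihood, robust, R 4.3.3) over all 36 libraries with group and replicate number as terms, TMM factors from genes and the filterByExpr filter; repeat families were fitted apart with the same factors. The replicate number was in the model as in the study's methods. Deviations of same-numbered uninduced and 24 h libraries correlated at 0.35, 0.22 and 0.20 over genes with a mean above 100. Pairs of unlike number reached at most 0.076 there. Over all genes tested the values were 0.14, 0.056 and 0.049, with up to 0.058 for unlike numbers. Adjusted p-values are Benjamini-Hochberg values over all features, and the standard error is the log2 fold change divided by the root of the F statistic. The difference between the lines is the change in the MSR-dCas9-Activator line less that in the MSR-dCas9-Control line, with the same limits. The mean was taken over the compared libraries of the line tested, and for the difference over those of both lines. Exact permutation tests were two-sided. Floors of 3 counts and counting intervals cover counting error only. The script was tested on simulated data. DESeq2 1.42.0, other scalings, filters and limits, leaving out each library and the model without the replicate number were tried.

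Named by rule were GSAT_MM, SYNREP_MM and Hprt, the 10 largest rises and falls among called genes that moved alike in all 3 same-numbered pairs (predicted and small RNA genes apart, 3 each way), the 5 largest rises and falls among called repeat families with a mean of at least 100, and in each list the called member with the largest rise and fall, or the member of highest mean where none was called; other examples, such as Gm10800, IAPEz-int, MERVL-int and the further list members, were chosen after their values were seen. The members and lists were chosen with earlier results of these data known. Some items that these rules name are not reported here.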

Additional observations from a re-analysis of the deposited data

Results flagged for a closer look

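The change at 24 h differed between the lines, by the test of the difference itself (edgeR, adjusted p under 0.05 and beyond the limit of the call), for 1483 genes and 310 repeat families, and for 44 of the 76 named items tested. The lines also differ in the length of doxycycline exposure, so effector and exposure cannot be told apart. Each value is the log2 fold change in the MSR-dCas9-Activator line less that in the MSR-dCas9-Control line. For genes the mean above 100 was taken over the compared libraries of both lines, so genes low in MSR-dCas9-Control cells could miss it. Arc, Crx, Oas2 and Piwil2 did, though they passed the other limits.

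Among repeats the difference was 7.40 for GSAT_MM, 5.85 for SYNREP_MM, 4.81 for (CAGGG)n, 4.15 for ERVB5_1-I_MM-int and 3.64 for IAPLTR4_I, and it was -1.14 for Eulor9A, -0.77 for RNERVK23-int and -0.72 for MER127. Among genes with a higher change in the MSR-dCas9-Activator line, the fitted difference was 11.82 for Zdbf2 and 11.54 for Calcr, which had 0 or 1 count before induction, so that these values are not bounds. It was 5.77 for Grin1, 4.93 for Pecam1, 3.78 for Il6, 2.67 for Atf3, 2.11 for Mmp13, 2.10 for Cdkn1a, 1.82 for Hspa1b, 1.8 for Atp6v1h, 1.52 for Ttn, 1.40 for Slc16a3 and 1.33 for Hmox1. Acta2 fell in both lines, and its difference of 1.02 reflects the larger fall in the MSR-dCas9-Control line.

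Among the largest falls the difference was -2.72 for Gm43921, -2.52 for Hist1h1a, -2.43 for Frmd4b, -2.21 for Fat4, -2.16 for Mir5114, -2.14 for Gm12744, -2.07 for Medag, -1.94 for Sp8 and -1.48 for Adamts5. Gm43921 lies within Col1a2, so the differences of these genes may not be separate. Among list members it was -2.24 for Pck2, -1.71 for Cdkn2c, -1.65 for Col1a2, -1.62 for Psrc1, -1.57 for Prrx1, -1.55 for Kmt5c and -1.46 for Mgst1. It was -1.31 for Casp9, -1.24 for Ccna2, -1.16 for Tubb3, -1.13 for Wipi1, -1.06 for Bard1 and -1.05 for Ifit2.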

How the results depend on the processing

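Of 119 alternatives for the main values and counts, 101 kept direction, side of the threshold and, for counts, a value within 1.5 times, and 18 did not. With a log2 limit of 0.5 for genes, 6223 genes were called for MSR-dCas9-Activator, 157 for MSR-dCas9-Control and 4460 for the difference. With neither the filter on low counts nor the limit on the mean, the counts were 11791, 64 and 4133. With a limit of 1 for repeat families 258 were called, and 149 for the difference. Scaling to mitochondrial mRNAs gave 21 genes for MSR-dCas9-Control, 2300 for the difference, 310 repeat families and 82 for their difference. Leaving out 1 library gave 1340 to 3060 genes, 19 to 29 for MSR-dCas9-Control and 917 to 2408 for the difference, 415 to 661 repeat families and 170 to 435 for their difference. The same scaling gave 23 called members for the matrix list, 11 for p53 targets, 10 for homologous recombination and Fanconi anaemia, 8 each for the contractile and the protocadherin and neuronal lists, 7 for mesenchymal factors, 6 for NRF2 targets and 5 for apoptosis regulators. The median log2 change of all genes was 0.06, and 0.16 with DESeq2, 0.18 with its size factors, 0.15 with library size and -0.20 with mitochondrial scaling. The cause of these moves was not tested, beyond the fewer or more features that a limit or filter admits.

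Without the replicate block 1872 genes were called, 1856 of them shared, 27 for MSR-dCas9-Control, 1196 for the difference, 549 repeat families and 257 for their difference, with GSAT_MM at 7.94 and SYNREP_MM at 6.11. Of 920 alternatives for named items 885 kept their direction and their side of an adjusted p of 0.05. In 13 a called item went past that value, and in 21 an item that was not called did. The limits on the mean and on the size of the change were not applied here, so calls lost through them are not counted. In 1 the direction reversed: Klf2, which was not called, was at -0.23 in the full fit. With 1 library left out Klf2 lay between -0.55 and 0.0095, the last without uninduced replicate 1. With 3 libraries a group, an exact permutation test cannot go below 0.1.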
